A study of Oryza sativa with 7 samples.

Results

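Outgrowing crown root primordia of rice were compared with primordia at initiation, using 5 of the 7 libraries of the series. The outgrowth group held 2 libraries and the initiation group 3, all of crown root primordia obtained by laser capture, a method that cuts selected cells out of a tissue section. A further 2 libraries of ground tissue, the control, entered the fit and are given as the background level. All groups came from the stem base of wild-type seedlings of the indica cultivar IR64, grown for 6 days, and no group carried a mutation or a treatment. Initiation replicates 1 and 3 differed by only 0.402 times the squared difference that counting noise would give between separate libraries, against 28.8 and 36.9 times for either of them with replicate 2. They were therefore averaged into 1 sample, which leaves 2 samples at each stage. The same measure was 9.53 between the outgrowth libraries and 52.5 between the control libraries.

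The values are reads per gene scaled to a library total of 1000000 (CPM). Outgrowth libraries held 11337620 to 12517569 reads and initiation libraries 11411697 to 21043491, against 8351775 to 25448025 in control. Genes are named by published rice locus assignments held as background knowledge. The deposited tables give locus identifiers without names, and no annotation used here pairs them, so each name stands beside its identifier, which is the measured item. Of 397 loci in 27 lists of known genes, 345 had a read in some library and 282 were expressed highly enough to be tested.

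Crown roots form from cells of the stem base that divide into a primordium, organise a root stem cell niche and then push out through the stem. Auxin sets off initiation through response factors that switch on genes such as CRL1, a LOB-domain transcription factor. PLETHORA-like AP2 factors, WOX homeodomain factors and the GRAS factors SHORT-ROOT and SCARECROW pattern the niche and the ground tissue, as known largely from Arabidopsis. Class 1 KNOX factors, by contrast, are known for maintaining the shoot meristem.

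Across all 18830 genes tested, 580 (3.08%) passed an edgeR adjusted p of 0.05 between the stages, 235 (1.25%) higher and 345 (1.83%) lower at outgrowth. In the lists, 38 of 282 tested loci were called, 6 higher and 32 lower at outgrowth. The lists were chosen with earlier results of these data known, so a share above that of all genes cannot be read as enrichment. The median fitted log2 change over all tested genes was 0.03, and 52.1% of them were fitted above 0. The 32 lower loci were regulators of meristem and root patterning, auxin genes, mitotic cyclins, expansins, an aquaporin and a brassinosteroid factor. Of these 32, the control mean was above the initiation mean for 13 and below it for 19. Over all 345 genes called lower the split was similar, with 146 above and 199 below. The overall count changed with the libraries in the fit. It was 15 without initiation replicate 2, 349 without the averaged initiation sample, 0 without either outgrowth replicate and 1821 or 1792 without control replicate 1 or 2, and 1949 with primordium libraries only. Of the 38 listed calls, 23 held without the averaged initiation sample, 2 without initiation replicate 2 and 0 without either outgrowth replicate. Removing the abundance trend of the dispersion also gave 0, with 2997 genes at an unadjusted p below 0.05, against 3270 in the fit reported here.

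**Figure D1:**
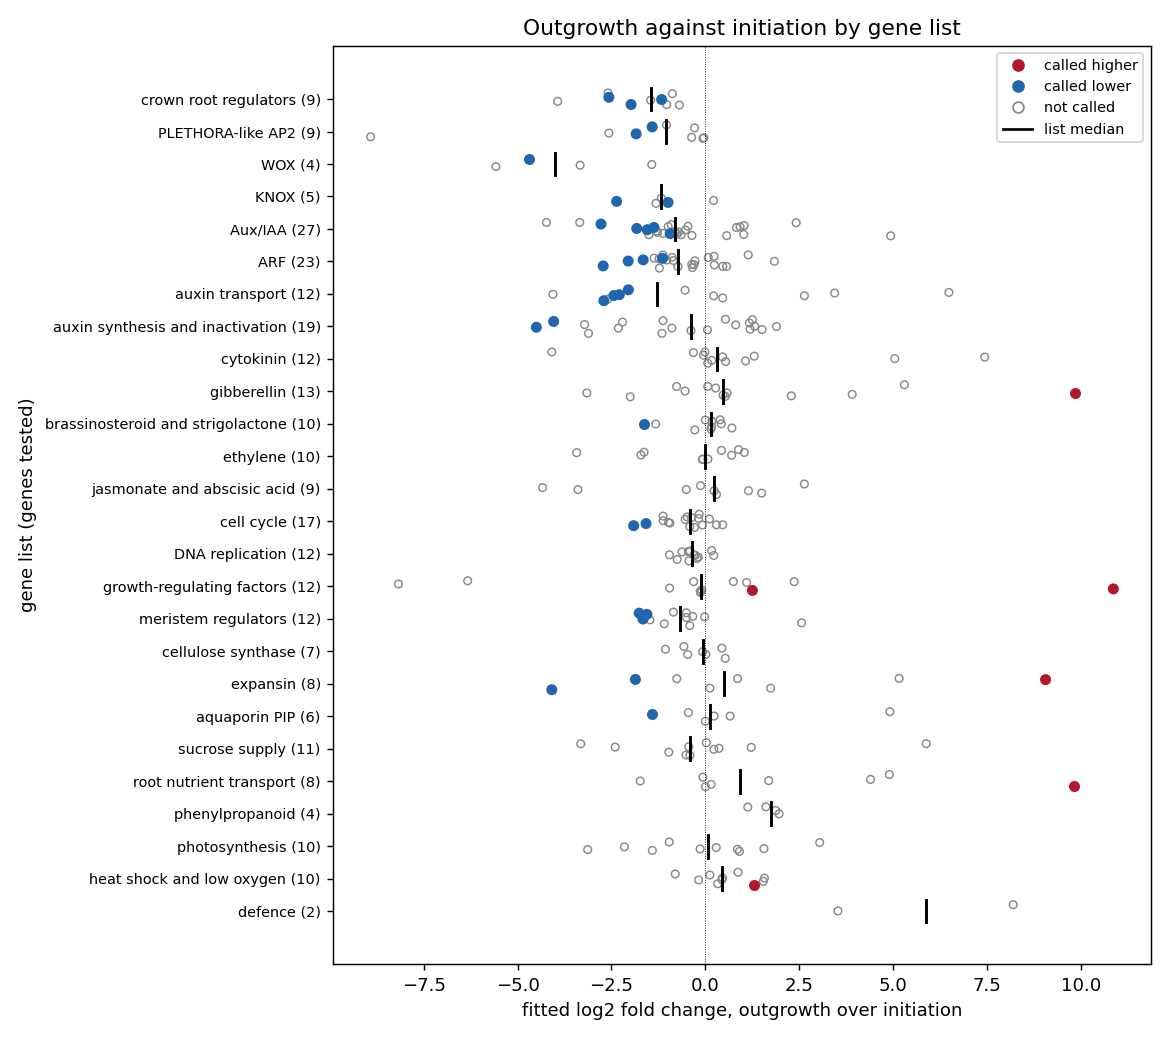
Fitted log2 fold change of outgrowth over initiation for each tested gene of the lists, 1 gene list per line with its number of genes tested. Filled circles passed an edgeR adjusted p of 0.05, open circles did not, and the black bar is the list median. Most called genes lie to the left, at lower levels in outgrowth. Points far to either side include genes with no read at 1 stage, whose fitted position depends on the prior count and is no measured fold.

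The tissue labels were checked against marker levels. The 12 light-harvesting and Rubisco genes summed to 10.3 and 7.55 CPM at outgrowth and 13.5 and 11.7 CPM at initiation, against 587 and 1404 CPM in control. Of the 10 of them that were tested, none passed the edgeR adjusted threshold in either direction, and 1 of the 12 had no read in any library. PLT3 (LOC_Os02g40070), a PLETHORA-like factor, had 396 and 340 CPM at outgrowth and 427 and 329 CPM at initiation, and no read in control. The 9 PLETHORA-like genes summed to 967 and 844 CPM at outgrowth, 1304.5 and 1379 CPM at initiation and 317 and 336 CPM in control. Not all root regulators followed PLT3: CRL5, PLT7, PLT9, WOX11 and WOX4, described below, were highest in control. Green tissue genes were thus low in the libraries of both stages. CASP1 (LOC_Os04g58760), which encodes a Casparian strip protein, had no read at either stage and 5.21 and 4.75 CPM in control.

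The SHORT-ROOT genes and 1 SCARECROW gene were called lower at outgrowth. No gene known for crown root initiation itself was called in this fit, though CRL1 was with primordium libraries only. Whether these groups of genes differ from each other was not tested. Of 10 listed loci, 9 were tested, all were fitted below 0 with a median of -1.46, and 3 were called lower. In these bulk samples, fewer cells expressing a gene and less RNA per cell cannot be told apart. SHR1 (LOC_Os07g39820), a SHORT-ROOT-type GRAS factor, had 62.6 and 57.2 CPM at outgrowth, 251 and 461 CPM at initiation and 256 and 275 CPM in control. It fell by 2.57 on the log2 scale (SE 0.29, edgeR adjusted p = 0.00881). SHR2 (LOC_Os03g31880) had 13.6 and 13.1 CPM at outgrowth, 47.1 and 57.9 CPM at initiation and 65.9 and 69.7 CPM in control, and fell by 1.98 (SE 0.24, edgeR adjusted p = 0.0110). Both outgrowth libraries lay below every initiation and control sample for either gene. Between the stages alone, 58.5% of all tested genes did not overlap.

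The SCARECROW genes differed from these in their control level. SCR2 (LOC_Os12g02870) had 54.4 and 57.8 CPM at outgrowth and 138 and 114 CPM at initiation, against 11.2 and 13.5 CPM in control, and fell by 1.16 (SE 0.22, edgeR adjusted p = 0.0341). SCR1 (LOC_Os11g03110) had 94.4 and 90.0 CPM at outgrowth and 212 and 165 CPM at initiation, a log2 change of -1.03 (SE 0.32) that was not called (edgeR adjusted p = 0.141). It was called without control replicate 1 or 2 (edgeR adjusted p = 0.0159 and 0.0159). SCR1 and SCR2 are near-identical copies and reads may be split between them, so each level is uncertain. Their sum was 149 and 148 CPM at outgrowth and 350 and 279 CPM at initiation.

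CRL1 (LOC_Os03g05510), which is required for crown root initiation in rice, had few reads at outgrowth and its change missed the threshold. It had 0.0795 and 0.533 CPM at outgrowth, 5.90 and 3.56 CPM at initiation, and 0 and 0.804 CPM in control. The stages did not overlap, as for 58.5% of all tested genes, and the log2 change of -3.93 had a wide SE of 1.52 (edgeR adjusted p = 0.230). CRL1 was called when only the primordium libraries were fitted (edgeR adjusted p = 0.0322) and without control replicate 1 or 2 (0.0469 and 0.0452), and its adjusted p ranged from 0.0322 to 0.963 over the edgeR, limma and DESeq2 alternatives. Its neighbour LOC_Os03g05500, a related LOB-domain gene, had 0.636 and 0.533 CPM at outgrowth and 1.26 and 0.907 CPM at initiation.

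Other genes with a known crown root role were not called. ERF3 (LOC_Os01g58420), an ERF factor that acts with WOX11 in rice, had 120 and 88.6 CPM at outgrowth, against 182 and 155 CPM at initiation (log2 change -0.69, SE 0.27, edgeR adjusted p = 0.241). RR2 (LOC_Os02g35180), a type-A cytokinin response regulator repressed by WOX11 in rice, had 1.35 and 0.711 CPM at outgrowth, 3.70 and 8.93 CPM at initiation and 69.2 and 56.7 CPM in control. Its log2 change of -2.59 (SE 0.54) lay just outside the threshold (edgeR adjusted p = 0.0509), and passed it without control replicate 1 or 2 (edgeR adjusted p = 0.0337 and 0.0323) or without the averaged initiation sample (0.0419). CRL4 (LOC_Os03g46330), a GNOM-type regulator of vesicle traffic, had 3.18 and 1.78 CPM at outgrowth and 3.39 and 10.3 CPM at initiation, a spread within initiation as wide as the difference. CRL6 (LOC_Os07g31450), a chromatin remodeller, had a count of 0 in every library and was not tested.

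PLETHORA-like genes did not move as a block. All 9 were tested and fitted below 0, with a median of -1.04, and 2 were called lower. PLT2 (LOC_Os06g44750) had 174 and 165 CPM at outgrowth, 384 and 520 CPM at initiation and 44.2 and 57.5 CPM in control. It fell by 1.42 on the log2 scale (SE 0.22, edgeR adjusted p = 0.0210). PLT7 (LOC_Os03g12950) had 4.45 and 4.26 CPM at outgrowth and 15.9 and 15.4 CPM at initiation, but 47.8 and 45.2 CPM in control, and fell by 1.84 (SE 0.30, edgeR adjusted p = 0.0244). The called members therefore included a gene higher in primordia than in control and a gene lower in primordia than in control.

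Several PLETHORA-like genes had close levels at the stages. PLT1 (LOC_Os04g55970) had 175 and 137 CPM at outgrowth and 152 and 175 CPM at initiation, a log2 change of -0.06 (SE 0.19). PLT3, given above, had a log2 change of -0.04 (SE 0.21). PLT4 (LOC_Os04g42570) had 89.1 and 75.7 CPM at outgrowth and 110 and 102 CPM at initiation, with a log2 change of -0.36 (SE 0.27). For PLT1 and PLT3 the stages overlapped and the sign of the change depended on which library was left out. PLT6 (LOC_Os11g19060) had 46.9 and 43.9 CPM at outgrowth, 54.0 and 56.7 CPM at initiation and 1.51 and 0.421 CPM in control. PLT5 (LOC_Os01g67410) had 81.1 and 77.4 CPM at outgrowth and 159 and 166 CPM at initiation, a log2 change of -1.04 (SE 0.26) that missed the threshold (edgeR adjusted p = 0.0836) and passed it without control replicate 1 or 2 (0.00945 and 0.00974). PLT4, PLT5 and PLT6 were, like PLT3, lower in each control library than in any primordium sample.

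CRL5 (LOC_Os07g03250) and PLT9 (LOC_Os03g56050) showed another order, with the highest level in control. CRL5, which promotes crown root initiation in rice, had no read at outgrowth, 0.879 and 7.33 CPM at initiation and 145 and 152 CPM in control. Against a floor of 3 counts over the outgrowth group, 0.126 CPM, it was at least 32.6-fold lower at outgrowth, and it was not called (edgeR adjusted p = 0.0775). The bound was 6.99 from the averaged initiation sample alone and 58.3 from initiation replicate 2 alone, and without the averaged sample the gene was called (edgeR adjusted p = 0.0156). PLT9 had 1.11 and 0.622 CPM at outgrowth, 2.64 and 7.82 CPM at initiation and 26.98 and 29.8 CPM in control (log2 change -2.57, SE 0.66, edgeR adjusted p = 0.0882). In initiation the higher level of both stood in replicate 2.

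Among 8 WOX genes, 4 were tested and 1 was called. QHB (LOC_Os01g63510), the rice marker of the quiescent centre, had 20.5 and 20.3 CPM at outgrowth, 165 and 248 CPM at initiation and 1.27 and 14.6 CPM in control. Its log2 change of -3.34 (SE 0.76) missed the threshold (edgeR adjusted p = 0.0647). The miss depended on the fit, since QHB was called with primordium libraries only (edgeR adjusted p = 0.00105), and its adjusted p ranged from 1.3e-05 to 0.430 over the alternatives, all edgeR, limma or DESeq2 fits. WOX6 (LOC_Os03g20910) had 0.477 and 0.533 CPM at outgrowth, 4.08 and 22.5 CPM at initiation and 6.02 and 6.12 CPM in control, and fell by 4.70 (SE 0.96, edgeR adjusted p = 0.0461). WOX6 was not called with limma (adjusted p = 0.0547), and without initiation replicate 2 its log2 change was -3.00 (edgeR adjusted p = 0.238). For both genes each outgrowth library lay below each initiation sample, and the stages did not overlap for 58.5% of all tested genes.

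WOX11 (LOC_Os07g48560), which promotes crown root growth in rice, was near the detection limit in primordia. It had 0.636 and 0 CPM at outgrowth, 0.126 and 1.68 CPM at initiation and 11.6 and 23.5 CPM in control, so no stage difference was detectable at this depth. WOX4 (LOC_Os04g55590), known for meristem maintenance in rice, had no read at outgrowth, 0.502 and 0.279 CPM at initiation and 79.5 and 106 CPM in control. It was at least 3.11-fold lower at outgrowth and not called (edgeR adjusted p = 0.0747). WOX12 (LOC_Os05g48990) had only 2 reads, in initiation replicate 3, and the counts of WOX9 (LOC_Os01g47710), WOX3A (LOC_Os11g01130) and NAL3 (LOC_Os12g01120) were 0 throughout, so these 4 were not tested.

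**Figure D2:**
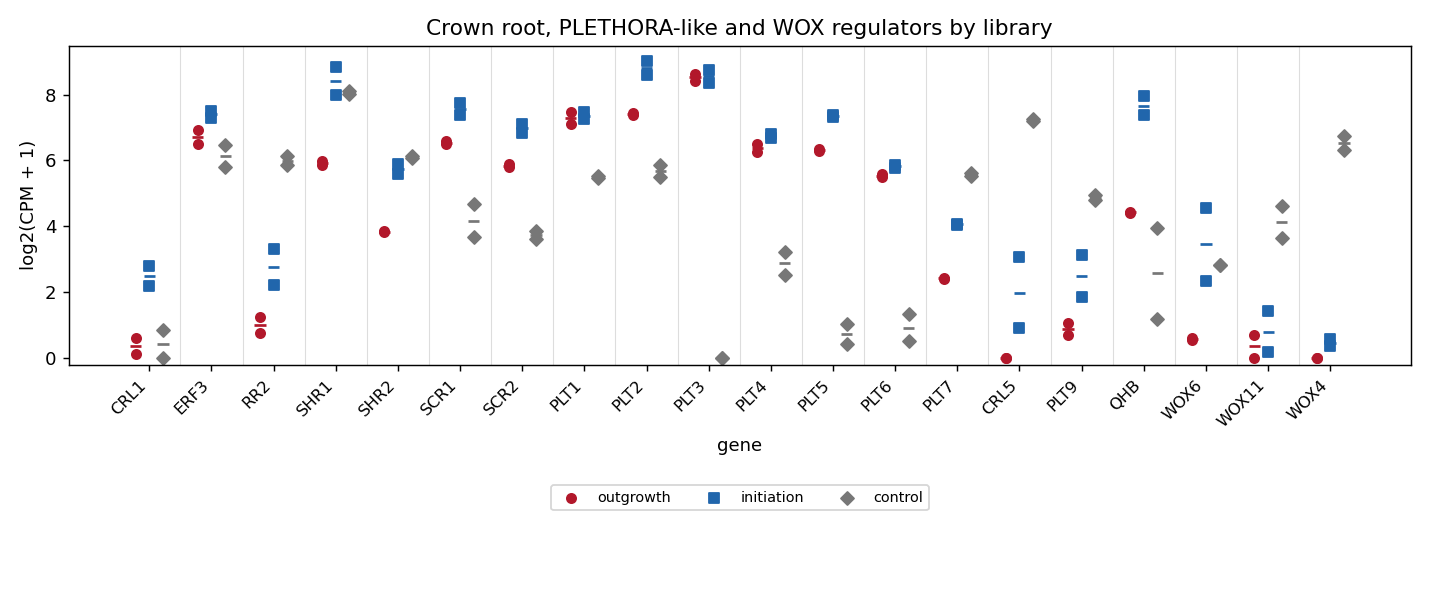
Level of crown root, PLETHORA-like and WOX regulators in each library, as log2(CPM + 1), with red circles for outgrowth, blue squares for initiation (replicates 1 and 3 averaged) and grey diamonds for control, and short bars for group means. SHR1, SHR2, SCR2, PLT2, PLT7 and WOX6 were called lower at outgrowth. PLT1, PLT3 and WOX11 overlap between the stages. The other genes shown do not, as for 58.5% of all tested genes. CRL5 and WOX4 are among the genes highest in control.

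Among the KNOX genes, OSH1 and OSH15 fell at outgrowth. They were the 2 called of 5 tested, and the list median was -1.17. OSH1 (LOC_Os03g51690) had 14.9 and 13.1 CPM at outgrowth, 73.5 and 71.1 CPM at initiation and 401 and 418 CPM in control, and fell by 2.36 (SE 0.18, edgeR adjusted p = 0.00523). OSH15 (LOC_Os07g03770) had 102 and 97.0 CPM at outgrowth, 196 and 200 CPM at initiation and 260 and 357 CPM in control, and fell by 0.99 (SE 0.20, edgeR adjusted p = 0.0447). OSH71 (LOC_Os05g03884), by contrast, had 130 and 124 CPM at outgrowth and 103 and 116 CPM at initiation and was not called. The summed KNOX list stood at 261 and 247 CPM at outgrowth and 391 and 428 CPM at initiation, against 898 and 1043 CPM in control. Control tissue was thus highest in the KNOX sum, and whether surrounding tissue in the initiation captures had a part in it was not tested.

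Of 12 tested meristem regulators, 3 fell, none rose and 9 were not called. HD-ZIP III factors, known from Arabidopsis for adaxial and vascular patterning, had 4 tested loci, of which LOC_Os03g01890 and LOC_Os03g43930 were called lower. LOC_Os03g01890 had 24.6 and 27.6 CPM at outgrowth, 62.8 and 90.7 CPM at initiation and 276 and 290 CPM in control (log2 change -1.56, SE 0.22, edgeR adjusted p = 0.0172). LOC_Os03g43930 had 40.4 and 36.4 CPM at outgrowth, 79.0 and 164 CPM at initiation and 588 and 587 CPM in control (log2 change -1.66, SE 0.32, edgeR adjusted p = 0.0393). PNH1 (LOC_Os06g39640), an Argonaute protein of the PINHEAD type, had 67.9 and 67.4 CPM at outgrowth, 184 and 275 CPM at initiation and 405 and 358 CPM in control, and fell by 1.76 (SE 0.23, edgeR adjusted p = 0.0128). All 3 were lowest at outgrowth and highest in control.

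Auxin genes made up 15 of the 32 lower loci and also a large part of the tested loci, as the counts below give. Over all tested genes, 1.83% were called lower. Of 27 tested Aux/IAA genes, which encode repressors of auxin response, 5 were called lower and none higher, with a median log2 change of -0.80. Of 23 tested ARF genes, which encode the auxin response factors they bind, 4 were called lower and none higher, with a median of -0.73. Of 12 tested auxin carriers, 4 were called lower and none higher, with a median of -1.30. Among 19 tested genes of auxin synthesis and inactivation, 2 were called lower, and 9 of the 19 were fitted above 0.

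Of the 5 Aux/IAA genes that fell, 4 had a control mean below the initiation mean and 1 above it. IAA12 (LOC_Os03g43410) had 19.0 and 19.5 CPM at outgrowth, 98.0 and 166 CPM at initiation and 22.6 and 13.9 CPM in control, and fell by 2.78 (SE 0.35, edgeR adjusted p = 0.0117). IAA26 (LOC_Os09g35870) had 39.9 and 36.3 CPM at outgrowth, 94.5 and 102 CPM at initiation and no read in control, and fell by 1.37 (SE 0.24, edgeR adjusted p = 0.0369), though limma did not call it (adjusted p = 0.0535). IAA7 (LOC_Os02g13520) had 102 and 103 CPM at outgrowth, 280 and 318 CPM at initiation and 43.4 and 54.5 CPM in control, and fell by 1.55 (SE 0.19, edgeR adjusted p = 0.0110). In these 3 the initiation level was above control, whereas IAA3 (LOC_Os01g13030) was highest in control. IAA3 had 206 and 216 CPM at outgrowth, 405 and 402 CPM at initiation and 608 and 652 CPM in control, and fell by 0.94 (SE 0.16, edgeR adjusted p = 0.0267). IAA6 (LOC_Os01g53880) had 55.9 and 43.4 CPM at outgrowth, 146 and 207 CPM at initiation and 38.2 and 84.3 CPM in control. It fell by 1.83 (SE 0.38, edgeR adjusted p = 0.0485), and its initiation level was also above control.

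All 4 ARF genes that fell had a control mean above their outgrowth mean. ARF15 (LOC_Os05g48870) had 28.2 and 27.3 CPM at outgrowth, 127 and 239 CPM at initiation and 151 and 161 CPM in control, and fell by 2.72 (SE 0.30, edgeR adjusted p = 0.00881). ARF11 (LOC_Os04g56850) had 18.4 and 17.2 CPM at outgrowth, 51.9 and 96.5 CPM at initiation and 332 and 266 CPM in control, and fell by 2.06 (SE 0.31, edgeR adjusted p = 0.0199). ARF12 (LOC_Os04g57610) fell by 1.66 (SE 0.25, edgeR adjusted p = 0.0189) and ARF24 (LOC_Os12g29520) by 1.14 (SE 0.20, edgeR adjusted p = 0.0294). The initiation samples were above both outgrowth libraries in each of the 4, which the choice of called genes makes likely. The stages did not overlap for 58.5% of all tested genes.

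The 4 auxin carriers that fell were 2 efflux and 2 influx carriers, while 8 of the 12 tested were not called and 5 were fitted above 0. PIN1c (LOC_Os11g04190), an efflux carrier, had 26.1 and 28.1 CPM at outgrowth, 142 and 210 CPM at initiation and 58.5 and 78.8 CPM in control, and fell by 2.70 (SE 0.27, edgeR adjusted p = 0.00719). PIN1d (LOC_Os12g04000) had 19.4 and 18.03 CPM at outgrowth, 85.1 and 98.2 CPM at initiation and 100 and 63.5 CPM in control, and fell by 2.29 (SE 0.28, edgeR adjusted p = 0.0102). These are near-identical copies whose separate levels are uncertain, and their sum was 45.4 and 46.1 CPM at outgrowth and 228 and 308 CPM at initiation. AUX3 (LOC_Os03g14080), an influx carrier, had 24.3 and 31.4 CPM at outgrowth, 136 and 165 CPM at initiation and 208 and 224 CPM in control, and fell by 2.44 (SE 0.21, edgeR adjusted p = 0.00571). AUX4 (LOC_Os10g05690) had 48.5 and 39.5 CPM at outgrowth and 147 and 217 CPM at initiation, and fell by 2.05 (SE 0.27, edgeR adjusted p = 0.0135).

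Among the carriers not called, PIN1b (LOC_Os02g50960) had 217 and 171 CPM at outgrowth and 204 and 360 CPM at initiation, which overlap. PIN2 (LOC_Os06g44970), known from Arabidopsis for auxin efflux in the root tip, had 36.2 and 35.8 CPM at outgrowth, 7.91 and 3.63 CPM at initiation and 8.80 and 2.03 CPM in control. Its log2 change of 2.64 (SE 0.71) missed the threshold (edgeR adjusted p = 0.0983). Both were picked out after their values were seen.

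GH3 enzymes join auxin to amino acids and so inactivate it. Of 10 tested GH3 genes 2 fell, none rose and 4 were fitted above 0. GH3-8 (LOC_Os07g40290) had 33.6 and 26.6 CPM at outgrowth, 338 and 654 CPM at initiation and 0.579 and 0.689 CPM in control, and fell by 4.04 (SE 0.34, edgeR adjusted p = 0.00523). GH3-1 (LOC_Os01g57610) had 2.54 and 3.46 CPM at outgrowth, 33.2 and 103 CPM at initiation and 1.16 and 1.26 CPM in control, and fell by 4.50 (SE 0.59, edgeR adjusted p = 0.0135). Both were low in control, so that the initiation level stood out from both other groups. GH3-5 (LOC_Os05g50890), picked out after its values were seen, lay the other way without being called, with 70.9 and 72.8 CPM at outgrowth and 33.1 and 29.8 CPM at initiation (log2 change 1.19, SE 0.29, edgeR adjusted p = 0.0764). Among the YUCCA genes of auxin synthesis, chosen here after their values were seen, YUC7 (LOC_Os04g03980) had 178 and 161 CPM at outgrowth and 79.2 and 11.8 CPM at initiation. YUC1 (LOC_Os01g45760) was on the opposite side, with 5.32 and 4.53 CPM at outgrowth and 30.1 and 19.1 CPM at initiation, and neither was called (edgeR adjusted p = 0.207 and 0.0796).

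**Figure D3:**
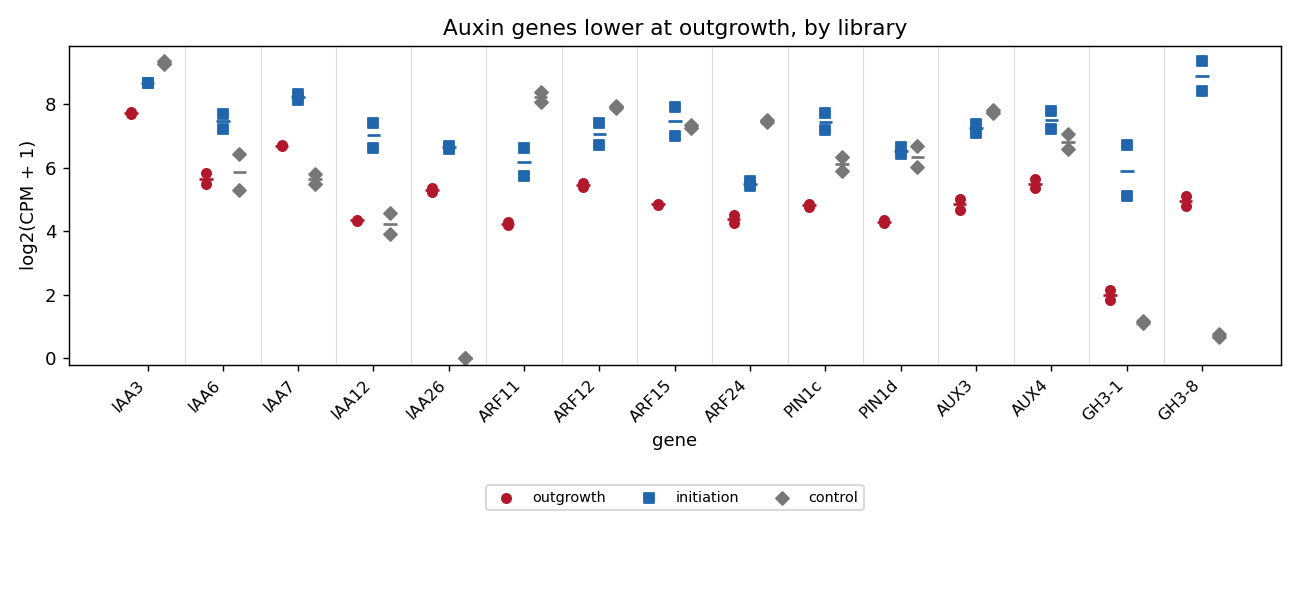
Level of the 15 auxin genes that fell, in each library, as log2(CPM + 1), with red circles for outgrowth, blue squares for initiation (replicates 1 and 3 averaged) and grey diamonds for control, and short bars for group means. Outgrowth lies below initiation in every gene, since the genes shown were chosen for being called lower. GH3-1, GH3-8 and IAA26 are low or absent in control, while AUX3, ARF11, ARF24 and IAA3 are among the genes highest there.

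Genes of the other hormones mostly did not pass the test. None of 12 tested cytokinin genes was called, with a median log2 change of 0.32, and none of 10 ethylene genes or 9 jasmonate and abscisic acid genes was called. In the brassinosteroid and strigolactone list 1 of 10 was called. It was DLT (LOC_Os06g03710), a GRAS factor of brassinosteroid response, with 17.1 and 17.6 CPM at outgrowth, 45.5 and 62.9 CPM at initiation and 41.5 and 26.4 CPM in control (log2 change -1.64, SE 0.32, edgeR adjusted p = 0.0411). The gibberellin list gave 1 call of 13, in the other direction. GA20ox1 (LOC_Os03g63970), an enzyme of gibberellin synthesis, had 7.55 and 7.82 CPM at outgrowth and no read at initiation or in control. Against the floor of 3 counts over initiation, 0.0992 CPM, the outgrowth level stood at least 77.5-fold higher (edgeR adjusted p = 0.0354). SLR1 (LOC_Os03g49990), the DELLA repressor of gibberellin response, was not called, with 71.2 and 68.5 CPM at outgrowth and 59.0 and 34.5 CPM at initiation.

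GIF1 and GRF7, from the family of growth-regulating factors and their coactivators, were higher at outgrowth. GIF1 (LOC_Os03g52320), a coactivator that binds growth-regulating factors, had 15.4 and 16.1 CPM at outgrowth, no read at initiation and 0 and 1.22 CPM in control. Set against the initiation floor, its level in outgrowing primordia stood at least 159-fold higher (edgeR adjusted p = 0.0423). GRF7 (LOC_Os12g29980) had 57.9 and 56.4 CPM at outgrowth, 25.6 and 22.3 CPM at initiation and 79.5 and 75.9 CPM in control, and rose by 1.25 (SE 0.21, edgeR adjusted p = 0.0278). The list as a whole did not rise, with 2 of 12 tested members called and a median log2 change of -0.11. GRF6 (LOC_Os03g51970), picked out after its values were seen, had 236 and 243 CPM at outgrowth and 158 and 65.3 CPM at initiation, and was not called (log2 change 1.101, SE 0.37, edgeR adjusted p = 0.170).

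The remaining genes that rose came from separate lists. EXPA2 (LOC_Os01g60770), an expansin, a protein that loosens cell walls, had 3.34 and 5.68 CPM at outgrowth, no read at initiation and 107 and 52.98 CPM in control, and so was at least 45.5-fold higher in outgrowing primordia than the initiation floor (edgeR adjusted p = 0.0141). NRT1.1B (LOC_Os10g40600), a nitrate transporter, had 7.07 and 8.26 CPM at outgrowth and a single read over the initiation libraries, in replicate 3. The ratio of its pooled reads, 182 at outgrowth and 1 in initiation replicates 2 and 3, was 275 after scaling by total reads, with an exact 95% interval of 48.8 to 10925 that covers counting error only (edgeR adjusted p = 0.0230). ADH2 (LOC_Os11g10510), an alcohol dehydrogenase of fermentation, had 261 and 232 CPM at outgrowth, 121 and 79.6 CPM at initiation and 234 and 247 CPM in control, and rose by 1.29 (SE 0.23, edgeR adjusted p = 0.0305). ADH1 (LOC_Os11g10480), a related gene nearby, had 332 and 309 CPM at outgrowth and 217 and 249 CPM at initiation and was not called (edgeR adjusted p = 0.275). Of these, EXPA2 and ADH2 were also abundant in control. Over all tested genes, 46 of the 235 called higher had no initiation count after averaging and rounding. Among the 345 called lower, 0 had no outgrowth read. Outside the lists, LOC_Os06g31890, chosen for its fitted rise, had 728 and 940 CPM at outgrowth and no count at initiation or in control. A read was found for 22185 and 21522 genes in the outgrowth libraries, and for 19583 to 20475 in the initiation libraries. The cause of this pattern was not tested.

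**Figure D4:**
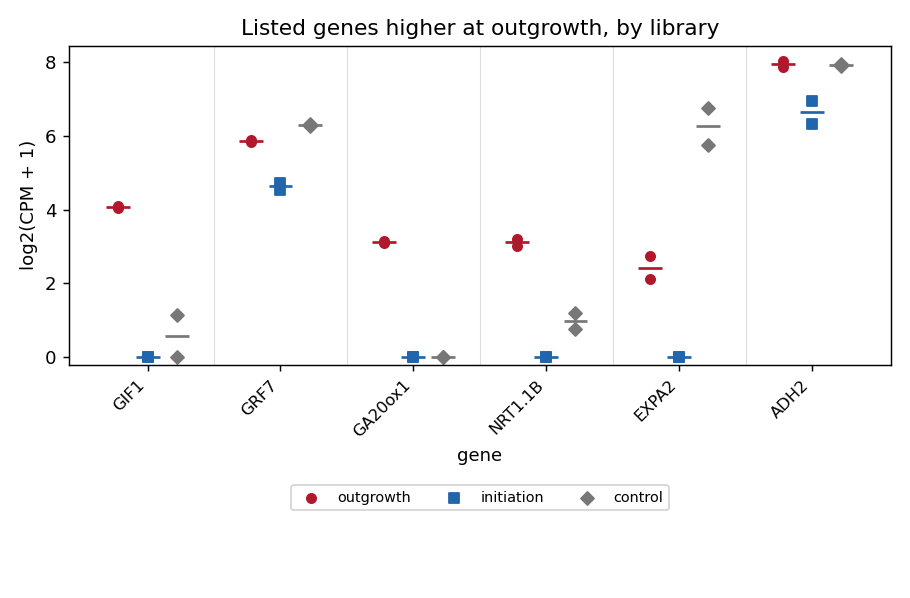
Level of the 6 listed genes that rose, in each library, as log2(CPM + 1), with red circles for outgrowth, blue squares for initiation (replicates 1 and 3 averaged) and grey diamonds for control, and short bars for group means. GIF1, GA20ox1, NRT1.1B and EXPA2 lie at 0 at initiation, while GRF7 and ADH2 are expressed in all groups and are lower at initiation.

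Of 3 tested B-type cyclins, which act in mitosis, 2 fell at outgrowth. CYCB1;1 (LOC_Os01g59120) had 75.1 and 104 CPM at outgrowth, 211 and 325 CPM at initiation and 49.9 and 71.0 CPM in control, and fell by 1.58 (SE 0.29, edgeR adjusted p = 0.0341). CYCB2;2 (LOC_Os06g51110) had 49.9 and 66.6 CPM at outgrowth, 154 and 283 CPM at initiation and 31.6 and 57.5 CPM in control, and fell by 1.91 (SE 0.38, edgeR adjusted p = 0.0429). They were the 2 called of 17 tested cell cycle genes, of which 14 were fitted below 0. None of 12 tested DNA replication genes was called, although 10 were fitted below 0, with a median log2 change of -0.36. PCNA (LOC_Os02g56130), the sliding clamp of DNA polymerase, had 615 and 787 CPM at outgrowth, 1041 and 1316 CPM at initiation and 219 and 353 CPM in control (log2 change -0.75, SE 0.26, edgeR adjusted p = 0.188). PCNA was picked out after its values were seen.

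**Figure D5:**
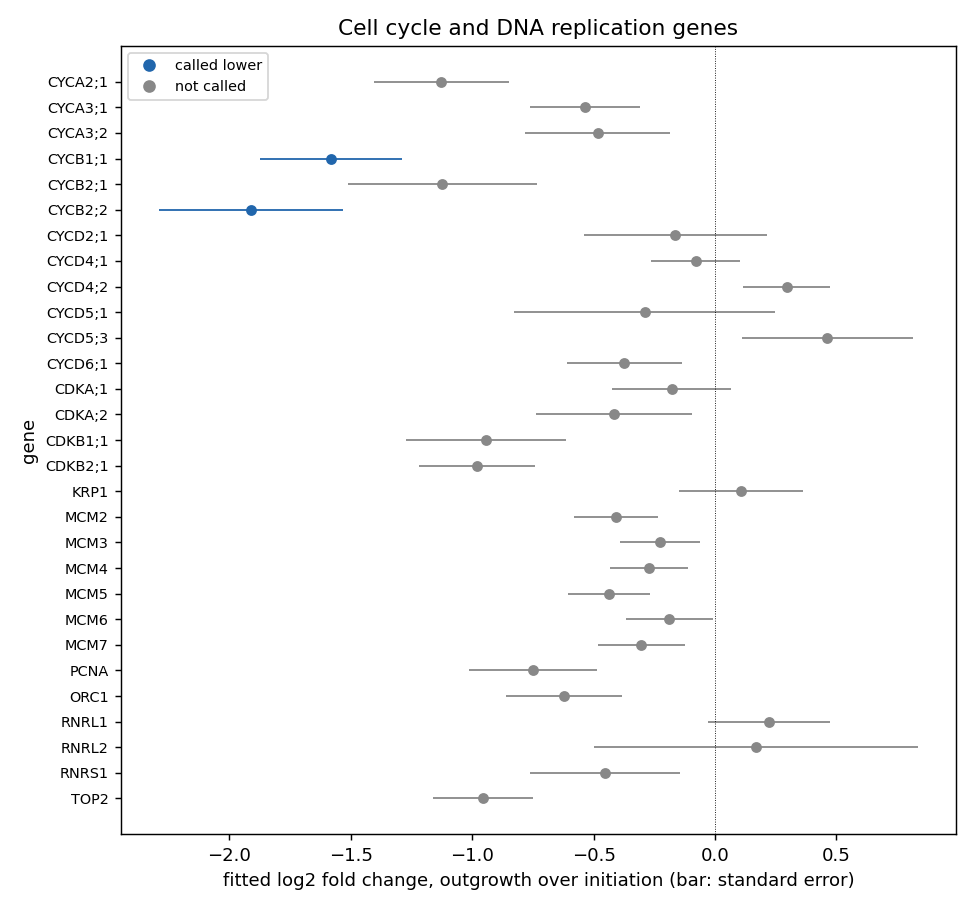
Fitted log2 fold change of outgrowth over initiation for 29 cell cycle and DNA replication genes, with bars of 1 standard error. CYCB1;1 and CYCB2;2 are the called genes, at -1.58 and -1.91, and 24 of the 29 points lie below 0. Over all tested genes, 52.1% were fitted above 0.

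Wall, water and transport genes changed in either direction. EXPB3 (LOC_Os10g40720), a beta-expansin, had 65.6 and 44.7 CPM at outgrowth, 644 and 1235 CPM at initiation and 114 and 171 CPM in control, and fell by 4.09 (SE 0.40, edgeR adjusted p = 0.00705). EXPA5 (LOC_Os02g51040) had 161 and 124 CPM at outgrowth, 426 and 613 CPM at initiation and 288 and 238 CPM in control, and fell by 1.86 (SE 0.24, edgeR adjusted p = 0.0135). With EXPA2 higher and these lower, the 8 tested expansins had a median log2 change of 0.49. EXPB3 lies among neighbouring beta-expansin loci, so its reads may be shared with related copies. PIP2;6 (LOC_Os04g16450), a plasma membrane aquaporin, had 46.6 and 41.5 CPM at outgrowth, 115 and 121 CPM at initiation and 1051 and 1251 CPM in control, and fell by 1.42 (SE 0.18, edgeR adjusted p = 0.0115). It was the only call among 6 tested aquaporins.

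No gene was called among 7 tested cellulose synthases, 11 sucrose supply genes or 4 phenylpropanoid genes, and the 8 tested nutrient transport genes gave only NRT1.1B. The phenylpropanoid genes were all fitted above 0, with a median of 1.74. PAL1 (LOC_Os02g41630), a phenylalanine ammonia-lyase chosen after its values were seen, had 81.3 and 60.8 CPM at outgrowth, 27.7 and 8.59 CPM at initiation and 235 and 146 CPM in control (log2 change 1.96, SE 0.51, edgeR adjusted p = 0.0887). Of 10 tested heat shock and low oxygen genes, ADH2 was the only call. Both tested defence genes, WRKY45 (LOC_Os05g25770) and WRKY53 (LOC_Os05g27730), were fitted above 0 and not called. WRKY45 had 26.9 and 11.7 CPM at outgrowth and 2.89 and 0.419 CPM at initiation, a log2 change of 3.53 (SE 1.02, edgeR adjusted p = 0.117).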

How the data were processed

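RNA was sequenced from laser-captured primordia and ground tissue after low-input cDNA amplification, and the submitters' processing notes name STAR as aligner. The sources used here give neither its version nor the counting tool, strand setting, genome build or annotation, so reads of overlapping genes or near-identical copies may be divided. The deposited tables head their values FPKM, but they hold whole numbers with unequal totals and were read as counts. Genes without a line in a table were set to 0.

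Initiation replicates 1 and 3 were averaged and rounded. Testing required 1 CPM or more in 2 or more of the 6 libraries and was done with edgeR 4.0.16 in R 4.3.3 (quasi-likelihood, TMM scaling, a joint fit of outgrowth, initiation and control), with two-sided p-values adjusted by the Benjamini-Hochberg method over 18830 genes, threshold 0.05. The fit had 3 residual and 4.72 prior degrees of freedom. CPM use TMM-scaled totals. SE is that of the log2 fold change, derived from its F statistic. Floors cover counting error only. The test was run on counts simulated from its own fitted spread. Such counts cannot show how well that spread describes these libraries.

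No label says which plants a library came from, so the p-values reflect library-to-library spread that may be technical. Members and gene lists were chosen with earlier results of these data known. Names and roles of loci were written from background knowledge: the reference gene table matched 0 identifiers, and single assignments were not checked. Every gene of the crown root, PLETHORA-like and WOX lists was described, and called members of the other lists were named, up to 4 per list and direction; other genes are marked. Alternatives were other scaling, filters, DESeq2 1.42.0, limma 3.58.1, a replicate block and leaving out libraries.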

Additional observations from a re-analysis of the deposited data

How the results depend on the processing

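The count of 580 genes called between the stages depended on the method and on single libraries. DESeq2 called 1812 (844 higher and 968 lower at outgrowth), limma on log2(CPM + 1) 1032 (536 and 496), and edgeR without a filter on low counts 1523 (784 and 739). Fitting the primordium libraries only gave 1949, keeping 3 initiation libraries separate gave 1624, and omitting the abundance trend gave 0. Leaving out 1 sample in turn gave 0 to 1821 calls, where a lone remaining sample is assumed to vary like the other groups. "Initiation replicate 1" there means the averaged sample. The share of calls higher at outgrowth was 40.5%, against 51.9% with limma and 51.5% without a filter.

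All fitted calls kept their direction in every alternative. The alternatives reuse the same libraries and the genes were chosen for a large difference, so this agreement in sign was likely beforehand. Of the 38 listed calls, 36 held with limma, 34 with a replicate block, 23 without the averaged initiation sample, 2 without initiation replicate 2, and 0 without either outgrowth replicate or without the abundance trend. The calls lost with limma were WOX6 and IAA26, and with the block also GA20ox1 and DLT. Among the named genes not called, CRL1, SCR1, PLT5 and QHB were called with primordium libraries only. DESeq2 called SCR1, PLT5, QHB, RR2, CRL5, PLT9 and WOX4. The replicate block gave 617 calls and added QHB. Deviations of same-numbered outgrowth and initiation samples, the averaged sample standing as initiation replicate 1, had a correlation of 0.02 over 14578 genes. This cannot show whether libraries were collected as pairs, which no label states. Among genes not called, the sign turned for some when 1 sample was left out. The log2 change ranged from -0.22 to 0.16 for PLT3, turning without the averaged initiation sample (0.16) or outgrowth replicate 2 (0.08). It ranged from -0.24 to 0.11 for PLT1, turning without initiation replicate 2 (0.04) or outgrowth replicate 2 (0.11), and from -6.78 to 1.32 for WOX11, turning without initiation replicate 2. The cause of these changes was not tested.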
